A study of Mus musculus with 13 samples.

Results

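mmu-miR-140-3p and mmu-miR-140-5p are the 2 mature microRNAs (miRNAs) cut from the 2 arms of the miR-140 hairpin. They are 2 of the 1079 mouse miRNAs on the arrays, and they were chosen by their own measured signals, since both are abundant and both separated the diet groups. Their levels by diet are therefore given as a description, without a test. The RNA came from flank tumors of male C57BL/6 mice injected under the skin with B78H1 cells, an amelanotic mouse melanoma line. The 7 mice of the curcumin group ate chow with 4% curcumin from 14 days before injection, and the 6 control mice ate standard chow of the same batch. Tumors grew for 28 days in all mice, and 1 array was hybridized per tumor. Cells were injected in both flanks, and although there were as many arrays as mice in each diet, the labels do not tie a tumor to a flank or a mouse. Tumors were counted as separate animals here, and if any of them shared a mouse, the SEs and p-values are too small. The age of the mice is not given in the sources used here. B78H1 is a single transplanted line, so all tumors share their cell of origin, while vessels, blood cells and stroma come from the host.

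miR-140 is known above all from cartilage. It is transcribed from an intron of Wwp2, which encodes a ubiquitin ligase, under the control of the chondrocyte factor Sox9, and mice that lack it have shortened skeletal elements. Most hairpins yield 1 dominant arm, but both arms of miR-140 accumulate in chondrocytes, and since their seeds differ they recognize different messenger RNAs. Mesenchymal cells outside cartilage also express it.

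The hairpin is shown to place the arm whose sequence could be read, with the 3p arm in capitals (bases 45 to 65 of 70). The mature 3p arm follows with its seed in capitals (bases 2 to 8), since the seed is the stretch that pairs with a target. Both are RefSeq sequences of the assembly GRCm38.p6, the hairpin at chr8:107551244-107551313 and the mature arm at chr8:107551288-107551308, each on the plus strand and within Wwp2.
Mir140 hairpin: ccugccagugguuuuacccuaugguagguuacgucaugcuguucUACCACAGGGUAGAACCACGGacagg
mmu-miR-140-3p: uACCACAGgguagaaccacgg
Among the RefSeq mature mouse miRNAs, 1 other carried this seed, mmu-miR-497b, and it was not on the array. RefSeq entries were matched by name for 840 of the 1079 array miRNAs and for 1 of the 2 arms.

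Both diets were present on each of the 2 slides used, with 3 curcumin tumors and 2 controls on slide 1 and 4 tumors per diet on slide 2, while all control tumors lay on line 1 of the array positions and all curcumin tumors on line 2, so that this position and the diet cannot be told apart. The summed signal of all mouse miRNAs lay between 114095 and 281508 in curcumin tumors and between 150272 and 244666 in controls, with 272 to 370 and 313 to 412 miRNAs called detected. Curcumin tumor 5 had the lowest sum and the fewest detected miRNAs of all 13 arrays. No pair of arrays held equal values, which does not show that the tumors came from separate mice. The p-values below were computed with these tumors as the units. Precision is limited by how many arrays each diet has.

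Both arms were at a higher level in the curcumin tumors than in the controls, by 4.85-fold for mmu-miR-140-3p and 4.36-fold for mmu-miR-140-5p between the means of the log2 values. Both were called detected on 13 of 13 arrays. In bulk RNA, fewer cells of a type and less miRNA per cell cannot be told apart. Levels are log2 of the signal summed over the probes of a miRNA and quantile normalized, a step that gives every array the same set of values, so that each level is one of a shared series of ranked values and equal levels in different tumors are possible.

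On this scale the level of mmu-miR-140-3p in curcumin tumors 1 to 7 was 12.13, 12.13, 12.03, 12.28, 10.64, 12.40 and 11.38. In control tumors 1 to 6 it was 9.17, 9.17, 9.51, 9.27, 9.84 and 10.51. Every curcumin tumor lay above every control tumor, with a gap of 0.13 between curcumin tumor 5, the lowest of its group, and control tumor 6, the highest of its own. The means were 11.86 ± 0.63 (SD, n = 7) and 9.58 ± 0.52 (SD, n = 6), a difference of 2.28 (SE 0.32).

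The level of mmu-miR-140-5p in curcumin tumors 1 to 7 was 11.90, 12.03, 11.38, 11.61, 10.51, 11.90 and 11.09. In control tumors 1 to 6 it was 9.19, 9.06, 9.08, 8.88, 9.54 and 10.44. The groups did not overlap here either, the same tumors faced each other, and the gap was 0.07. The means were 11.49 ± 0.55 (SD, n = 7) and 9.37 ± 0.57 (SD, n = 6), a difference of 2.12 (SE 0.31). Between the group medians the folds were 6.68 for the 3p arm and 5.56 for the 5p arm, larger than between the means.

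**Figure D1:**
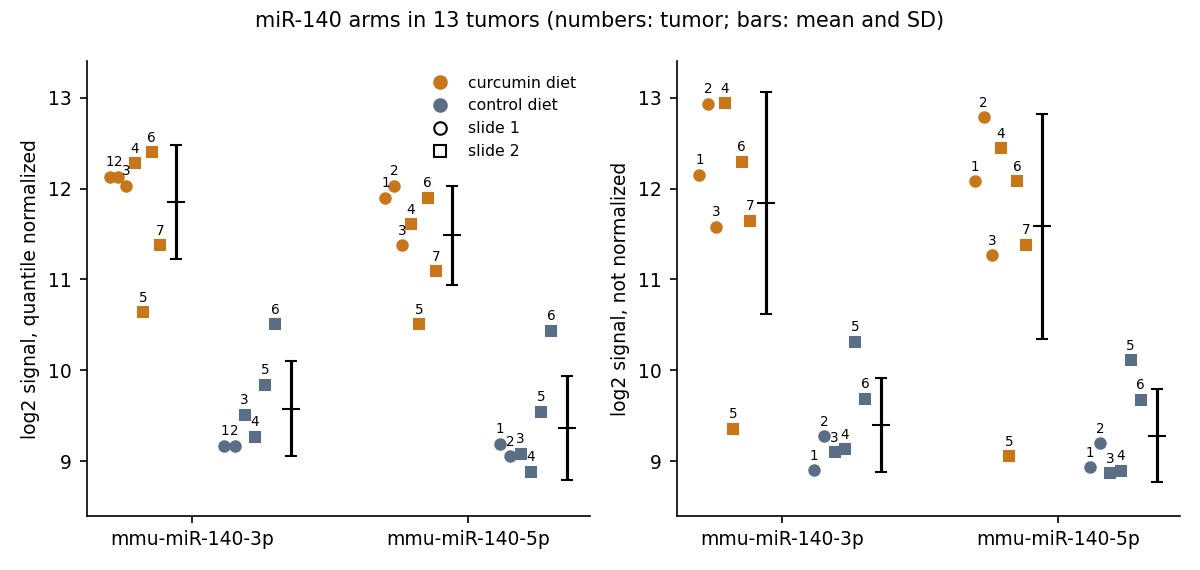
Level of both miR-140 arms in each tumor (number: tumor; circle: slide 1; square: slide 2), as log2 signal after quantile normalization (left) and without normalization (right), with the mean and SD of each diet. On the left all 7 curcumin tumors lie above all 6 controls, by 0.13 for the 3p arm and 0.07 for the 5p arm, and on the right curcumin tumor 5 lies within the range of the controls.

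The signals before normalization showed how much of this rested on curcumin tumor 5. The summed signal of the 3p arm was 655.9 in this tumor, against 3062 to 7852 in the other curcumin tumors and 478.6 to 1273.5 in the controls. That of the 5p arm was 531.2 in this tumor, against 2468 to 7053 in the other curcumin tumors and 467.4 to 1107 in the controls. Without normalization 6 of the 7 curcumin tumors lay above all controls in both arms and curcumin tumor 5 lay inside the control range. As a share of the array's own signal the 3p arm made up 0.575% in this tumor, 1.47% to 3.01% in the other curcumin tumors and 0.298% to 0.535% in the controls, which again left the groups apart. For the 5p arm the share was 0.466% in curcumin tumor 5, which was below the 0.531% of control tumor 6, and 1.22% to 2.51% in the other curcumin tumors. Scaling each array to its 75th percentile over the 243 miRNAs detected on all arrays left the groups apart, by 0.51 for the 3p arm and 0.21 for the 5p arm. Without curcumin tumor 5 the differences were 2.48 (SE 0.26) and 2.29 (SE 0.27) on the log2 scale.

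In the order of all miRNAs on an array the 3p arm stood at rank 7 to 23 in curcumin tumors and at rank 25 to 47 in controls. The 5p arm stood at rank 10 to 25 and at rank 26 to 54. Both arms were thus among the brighter miRNAs in every tumor, and they stood higher in the order in the curcumin tumors. By mean level over all tumors they held rank 19 and rank 25 of 1079, and by the size of the difference they held rank 6 and rank 9 of the 243 miRNAs detected on all arrays.

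Among these 243 miRNAs, 20 had all curcumin tumors above all controls (8.23%). With limma and Benjamini-Hochberg adjustment at 0.05, 90 of 1079 miRNAs were higher in curcumin tumors (8.34%) and 81 were lower (7.51%), so that 52.6% of the calls were higher. That share was 69.5% with the 75th percentile of all miRNAs as the scale and 20.4% without normalization. A hairpin with both arms detected on all arrays occurred 24 times, and in 2 of these (8.33%), miR-140 and miR-199a, all curcumin tumors lay above all controls in both arms. The choice of miR-140 rested on this contrast, so the counts only describe the setting. Relative to the median difference of the 243 detected miRNAs, which was -0.09, the arms were higher by 2.37 and 2.22. Under both percentile scalings and without normalization these values were 2.71 and 2.57. Those settings differ only by a shift of all log2 levels of an array, so that they give equal values was fixed in advance.

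Within the slides, each of which held both diets, the direction was the same. On slide 1 the mean level of the 3p arm was 12.10 in curcumin tumors and 9.17 in controls, and that of the 5p arm was 11.77 and 9.12, giving differences of 2.93 and 2.65. On slide 2 the means were 11.68 and 9.78 for the 3p arm and 11.28 and 9.49 for the 5p arm, giving differences of 1.89 and 1.79. The tumors with the lowest curcumin and the highest control values both lay on slide 2. A slide effect common to both diets was tested with limma, with diet in the fit, and it was 0.03 (SE 0.34, adjusted p = 1) for the 3p arm and -0.12 (SE 0.33, adjusted p = 1) for the 5p arm as slide 2 minus slide 1. No miRNA passed this test by limma (0% of 1079), and 24 had an unadjusted p under 0.05.

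The balance of the arms was read as the difference of their log2 levels within a tumor. The arms have different probes, so only changes of this difference between tumors can be read, not the amount of one arm against the other. In curcumin tumors 1 to 7 the 3p level minus the 5p level was 0.23, 0.10, 0.65, 0.67, 0.13, 0.50 and 0.29. In control tumors 1 to 6 it was -0.02, 0.11, 0.43, 0.38, 0.30 and 0.07. The groups overlapped, with 3 curcumin tumors (3, 4 and 6) above all controls. The means were 0.37 ± 0.24 (SD, n = 7) and 0.21 ± 0.18 (SD, n = 6), and their difference of 0.15 (SE 0.12) was smaller than the SD of either group and small against the difference between the diets in either arm. Within slide 1 the difference between diets was 0.28 and within slide 2 it was 0.10. Taken from the signals without normalization, the curcumin tumors had an arm difference of 0.26 ± 0.13 (SD, n = 7), against 0.12 ± 0.12 (SD, n = 6) for the controls.

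**Figure D2:**
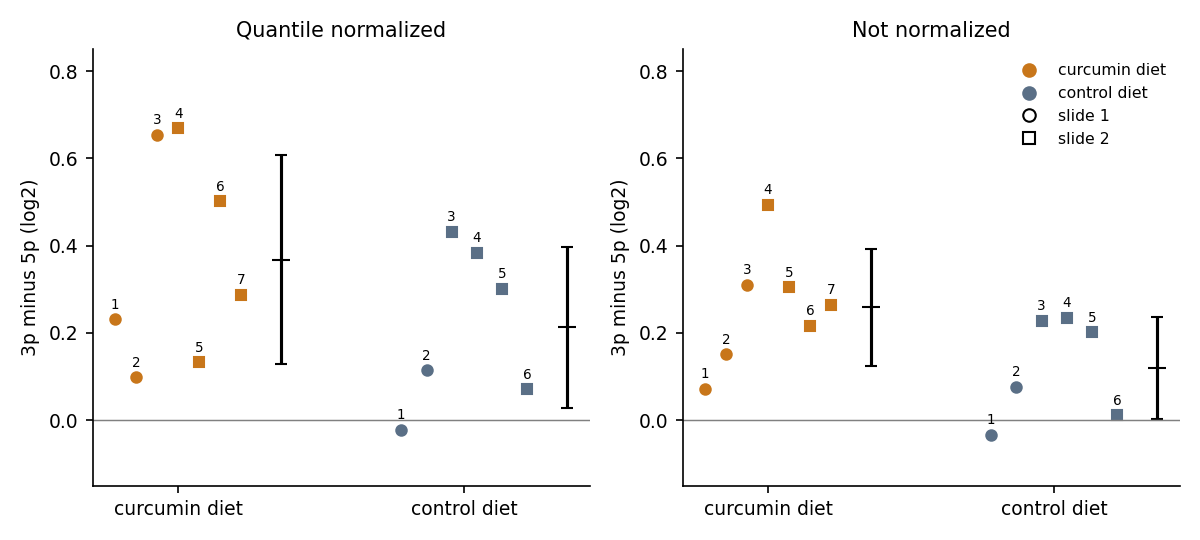
Log2 level of mmu-miR-140-3p minus that of mmu-miR-140-5p in each tumor (number: tumor; circle: slide 1; square: slide 2), after quantile normalization (left) and without normalization (right), with the mean and SD of each diet. The diets overlap in both panels, with means of 0.37 and 0.21 on the left and 0.26 and 0.12 on the right.

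Within a diet the arms varied together, a relation that the choice of miR-140 had not used. Over the 7 curcumin tumors Pearson's r was 0.93 (exact two-sided permutation p = 0.00754, adjusted over 2 relations 0.0151), and Spearman's rho was 0.75 (exact permutation p = 0.0560, adjusted 0.112). Over the 6 control tumors r was 0.95 (exact permutation p = 0.0222, adjusted 0.0222) and rho was 0.67 (exact permutation p = 0.161, adjusted 0.161). Without the 2 tumors farthest from the median of the 3p arm, r was 0.33 over the remaining curcumin tumors (without tumors 5 and 7) and -0.11 over the remaining controls (without tumors 5 and 6). The relation thus rested on these tumors, in which both arms were low together in the curcumin group and high together in the control group.

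**Figure D3:**
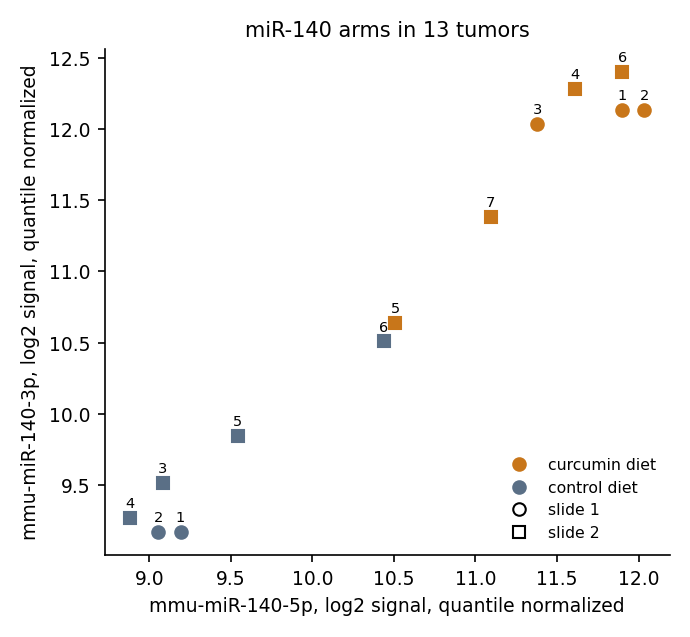
Level of mmu-miR-140-3p (vertical) against that of mmu-miR-140-5p (horizontal) in each tumor, as log2 signal after quantile normalization (number: tumor; circle: slide 1; square: slide 2). Curcumin tumor 5 (10.51 and 10.64) and control tumor 6 (10.44 and 10.51) lie next to each other between the groups.

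Set beside the other hairpins with both arms measured, miR-140 ranked high by the correlation of its arms. The deviations of its arms from the diet means correlated with r = 0.93 over 13 tumors, rank 2 of 24 hairpins, whose r ran from -0.72 to 0.96 with a median of 0.65. The SD of its arm difference within diets was 0.22, rank 4 from the lowest, against a median of 0.37 and a range of 0.14 to 2.37. The change of its arm difference between diets was the 8th smallest in size of the 24, whose median size was 0.40. The points share their arrays, and these values are a description. They include the tumors on which the relation within each diet rested, and they were not computed without them. The hairpins were not matched for signal level.

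Each arm was measured by 2 probes printed 20 times on each array, so 80 of the 43160 mouse miRNA spots of an array belonged to miR-140. The probes of an arm share the RNA and the array and are not replicates of a tumor. For the 3p arm, probe A_54_P3307 gave signals of 174.2 to 2200 in curcumin tumors and of 121.4 to 330.4 in controls, and probe A_54_P3308 gave 481.7 to 5652 and 357.2 to 943.1. For the 5p arm, probe A_54_P1075 gave 228.2 to 3066 and 202.2 to 481.9, and probe A_54_P1076 gave 303.1 to 3987 and 265.3 to 625.3. All 4 probes overlapped between the diets before normalization, through curcumin tumor 5. The differences between the diets in log2 probe signal were 2.55 and 2.41 for the probes of the 3p arm and 2.31 and 2.30 for those of the 5p arm. When the level of an arm was taken from 1 probe alone and normalized, the differences were 2.37 (SE 0.31) and 2.38 (SE 0.25) for the 3p arm and 2.11 (SE 0.33) and 2.08 (SE 0.30) for the 5p arm, so that each of the 4 probes gave a difference of similar size.

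The probes of the 3p arm ordered 13 of 13 tumors alike, and those of the 5p arm placed 11 of 13 tumors at the same rank. The log2 ratio of A_54_P3308 to A_54_P3307 lay at 1.36 to 1.47 in curcumin tumors (mean 1.40 ± 0.05, SD, n = 7) and at 1.51 to 1.57 in controls (mean 1.54 ± 0.02, SD, n = 6). All controls lay above all curcumin tumors, and the curcumin tumors nearest to them were tumors 5 and 7, those with the lowest 3p levels of the group. In the signals before normalization the dimmer probe of the 3p arm thus differed slightly more between the diets than the brighter one. As ratios these were 2.56 to 2.77 in curcumin tumors against 2.85 to 2.97 in controls. After normalization the differences of the 2 probes, 2.37 and 2.38, did not keep this order. The ratio of A_54_P1076 to A_54_P1075 overlapped between the diets, at log2 values of 0.33 to 0.41 in curcumin tumors and 0.35 to 0.40 in controls. The part of signal level in the shift of the 3p probes was not tested.

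**Figure D4:**
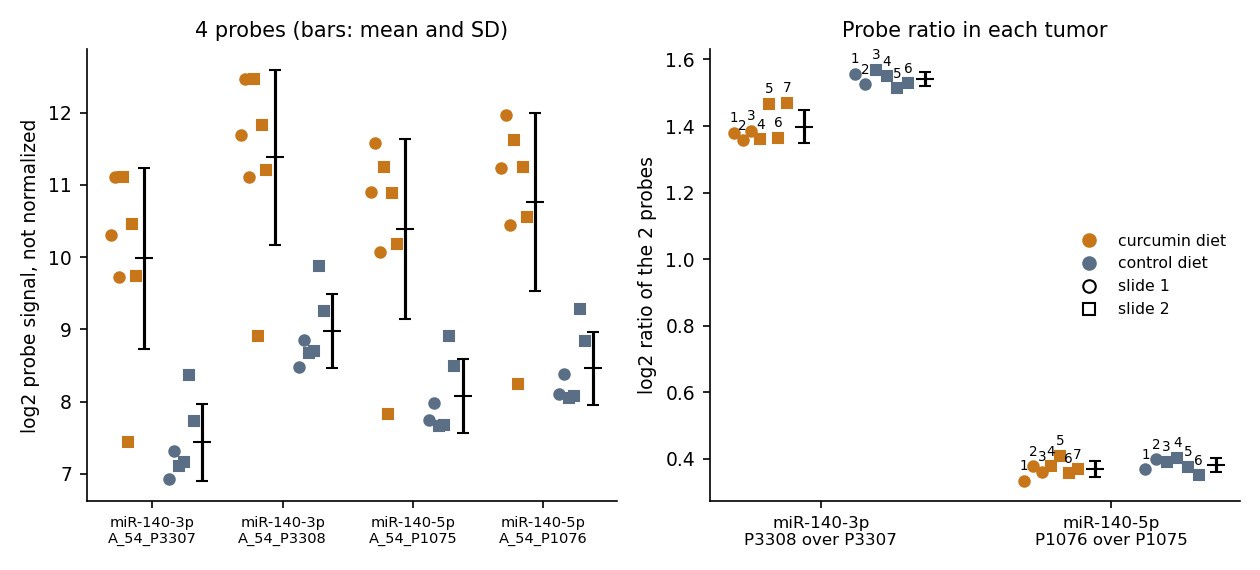
Left, log2 signal of the 4 miR-140 probes before normalization in each tumor, with the mean and SD of each diet (circle: slide 1; square: slide 2). Right, log2 ratio of the 2 probes of each arm in each tumor (number: tumor), at 1.36 to 1.47 in curcumin tumors and 1.51 to 1.57 in controls for the 3p arm and overlapping for the 5p arm.

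Of the 1040 miR-140 spots on all arrays, 1039 were well above background, 0 were saturated and 57 (5.48%) were marked as outliers by the scanner software. The coefficient of variation over the 20 spots of a probe was 2.01% to 6.31% on 50 of the probe and array combinations. The exceptions were both 3p probes in control tumor 6, at 22.7% and 24.1%, where 1 spot each was nearly empty (25.7 and -14.3, against median spots of 550.4 and 1594). Without the spots marked as outliers these values were 1.97% and 3.79%. The summed probe signals stayed within 2.06% of a fixed multiple of the mean of the unmarked spots over all arrays, against 4.20% for the mean of all spots. The 5p probes had no such spot in control tumor 6. This tumor was the highest control in both arms after quantile normalization, while control tumor 5 was the highest in the signals without normalization.

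The miRNAs whose levels followed the arms most closely within the diets were sought among the 241 others detected on all arrays, by Pearson's r of the deviations from the diet means over the 13 tumors. For the 3p arm these were mmu-miR-29c-3p (r = 0.88), mmu-miR-29b-3p (0.87), mmu-let-7e-5p (0.84), mmu-miR-22-3p (0.84) and mmu-miR-322-5p (0.84). For the 5p arm they were mmu-let-7e-5p (0.87), mmu-miR-29b-3p (0.86), mmu-miR-146b-5p (0.85), mmu-miR-29c-3p (0.83) and mmu-miR-29a-3p (0.83). The other arm, at 0.93, came before all 241, and the median over them was -0.14 for both arms. Within single diets r was uneven. With the 3p arm mmu-let-7e-5p had an r of 0.94 in curcumin tumors and 0.66 in controls. With the 5p arm mmu-miR-29c-3p had 0.96 and 0.66. Only mmu-miR-322-5p with the 3p arm (0.85 and 0.87) and mmu-miR-146b-5p with the 5p arm (0.81 and 0.91) were higher in controls. The r values were not computed without the tumors on which the relation of the arms rested. The miR-29 family is known for its targets among collagen and other matrix genes, and miR-146b for damping signals of innate immunity. All 7 of these miRNAs were higher in curcumin tumors by limma, beside 8.34% of all miRNAs. The likeness was taken within the diets, but the arms had been chosen by their contrast between the diets. The relation of the arms rested on curcumin tumors 5 and 7, low in their group, and control tumors 5 and 6, high in theirs. Picking miRNAs that follow the arms over these tumors may favor miRNAs that differ by diet, so the 7 of 7 is a description. The rises on the log2 scale were 1.104 (SE 0.18, adjusted p = 0.00348) for mmu-miR-29c-3p, 1.64 (SE 0.28, adjusted p = 0.00380) for mmu-miR-29b-3p and 1.52 (SE 0.24, adjusted p = 0.00348) for mmu-miR-29a-3p. They were 0.88 (SE 0.18, adjusted p = 0.00909) for mmu-let-7e-5p, 1.91 (SE 0.31, adjusted p = 0.00348) for mmu-miR-22-3p and 1.65 (SE 0.26, adjusted p = 0.00348) for mmu-miR-322-5p. The largest was that of mmu-miR-146b-5p at 3.01 (SE 0.51, adjusted p = 0.00374), the one of the 7 with a larger difference than the arms. Without normalization 0 of these 7 passed, and with the replicate number as a block 1 passed, mmu-let-7e-5p.

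Of 11 other miRNAs studied in cartilage, 4 were higher in curcumin tumors and 0 were lower by limma, and 7 did not pass, beside 8.34% higher and 7.51% lower over all 1079 miRNAs. The list's median difference was 0.18, against 0 over all 1079 miRNAs and -0.09 over the detected ones. The list was chosen with earlier results of these data known, so its counts and median are a description. Past the threshold were mmu-miR-22-3p, mmu-miR-455-5p (1.69, SE 0.45, adjusted p = 0.0288), mmu-miR-146a-5p (1.08, SE 0.25, adjusted p = 0.0150) and mmu-miR-27b-3p (0.75, SE 0.16, adjusted p = 0.00972). miR-455, whose hairpin lies in the collagen gene Col27a1, is the miRNA most often named beside miR-140 in cartilage. Its arms were dim in these tumors, with mmu-miR-455-5p detected in 6 of 7 curcumin and 2 of 6 control tumors, and its call was lost without curcumin tumor 1, 2, 3 or 6 or control tumor 3 (adjusted p up to 0.0614), and also under both percentile scalings and without normalization (adjusted p up to 0.367). mmu-miR-455-3p differed by 1.54 (SE 0.58, adjusted p = 0.102 by limma) and did not pass. Both arms of miR-675, which comes from the H19 transcript, were detected on no array. Without normalization 0 of the 11 passed.

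Of 8 miRNAs of fibroblasts and mesenchyme, 4 were higher and 0 lower by limma, beside 8.34% higher and 7.51% lower over all 1079 miRNAs. The median difference of the list was 1.73, against 0 over all miRNAs and -0.09 over the detected ones. This list too was chosen with earlier results of these data known, so its counts and median are a description. mmu-miR-199a-3p rose by 2.21 (SE 0.30, adjusted p = 0.00179), mmu-miR-199a-5p by 2.55 (SE 0.50, adjusted p = 0.00655), mmu-miR-199b-5p by 2.14 (SE 0.25, adjusted p = 0.00130) and mmu-miR-152-3p by 1.32 (SE 0.26, adjusted p = 0.00751). The rises of the miR-199 family, which is made from hosts in the Dnm genes and is known from mesenchymal cells, were of the size of the differences of the miR-140 arms. mmu-miR-214-3p, which shares a transcript with miR-199a, was detected in 7 of 7 curcumin and 3 of 6 control tumors and stood at an adjusted p of 0.0501 by limma (0.000501 to 0.185 over the other settings). mmu-miR-214-5p, from the other arm of that hairpin, differed the other way (-2.58, SE 1.40, adjusted p = 0.307 by limma) and was detected in 2 of 7 curcumin and 3 of 6 control tumors. mmu-miR-143-3p (0.20, SE 0.17) and mmu-miR-145-5p (-0.05, SE 0.27), known from smooth muscle, did not pass. Without normalization 2 of the 8 passed.

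**Figure D5:**
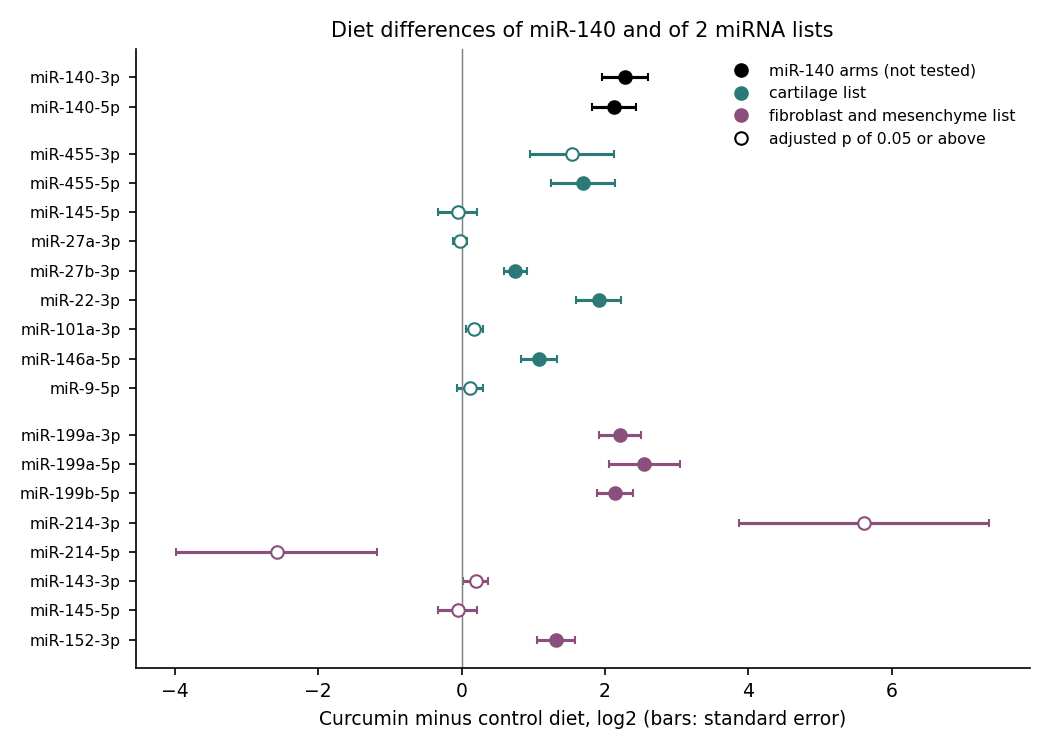
Difference between the diets (curcumin minus control, log2, bars: standard error) for the miR-140 arms, which were not tested, and for the members of the cartilage list and of the fibroblast and mesenchyme list; open circles did not reach an adjusted p under 0.05, and both arms of miR-675, detected on no array, are left out. The arms lie at 2.28 and 2.12, and the miR-199 family at 2.14 to 2.55. The cartilage list runs from -0.05 (mmu-miR-145-5p, a member of both lists) to 1.91. The fibroblast and mesenchyme list runs from -2.58 (mmu-miR-214-5p) to 5.61 (mmu-miR-214-3p). Neither of these was detected on all arrays, and the size of both differences is uncertain. Levels of mmu-miR-214-3p in controls (-1.22 ± 4.65, SD, n = 6) and of mmu-miR-214-5p in curcumin tumors (0.14 ± 3.34, SD, n = 7) spread widely.

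Markers of other cells that a flank tumor can hold were read beside the arms, and some of the lists differed between the diets in the same direction. The level of a list is given as the sum of the normalized signals of its members. Earlier results of these data were known when the lists were chosen, so sums and counts are a description. The fibroblast and mesenchyme list summed to 981.0 to 2256 in curcumin tumors and to 424.8 to 776.6 in controls, without overlap. This sum is weighted to its brightest members, mmu-miR-199a-3p, mmu-miR-199b-5p and mmu-miR-152-3p, all called higher. Their mean log2 levels in curcumin tumors were 9.26, 9.16 and 8.80. Members that did not pass were dimmer, at means of 6.31 or less, and weigh little in the sum. The blood cell list (4 miRNAs) summed to 341.5 to 1347 and 84.4 to 285.6, also without overlap, and 4 of 4 members were higher by limma, beside 8.34% of all miRNAs. Of these, mmu-miR-150-5p was detected in 0 of 6 controls. Without normalization 1 of the 4 passed, mmu-miR-142-3p. mmu-miR-142-5p did not pass with the replicate number as a block, and mmu-miR-223-3p did not pass with the 75th percentile of the detected miRNAs as the scale or without curcumin tumor 1 or 6 or control tumor 1, 3 or 4. The epithelial list (7 miRNAs) summed to 218.4 to 1739 and 3.32 to 165.2, which came from mmu-miR-205-5p, while the miR-200 family members of the list were detected on no array. The lists of endothelium (254.1 to 819.9 against 137.2 to 281.4), skeletal muscle (27.4 to 543.5 against 21.6 to 372.0) and red cells (45.4 to 276.9 against 39.9 to 713.9) overlapped between the diets. The melanocyte list (2 miRNAs) summed to 4.19 to 623.9 in curcumin tumors and 307.8 to 847.4 in controls, and mmu-miR-211-5p, its main member, was detected in 4 of 7 curcumin and 6 of 6 control tumors. The part of these cells in the level of the miR-140 arms was not tested.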

How the data were processed

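Arrays of 13 flank tumors (7 curcumin diet, 6 control diet, grouped by the labels) were used. The authors hybridized RNA in 1 color and obtained intensity values from the scans in Feature Extraction 10.10.1.1, which corrects the background, gives each probe 1 signal from its replicate spots and calls each miRNA detected or not. They also deposited log2 values, which their methods describe as quantile normalized. These differed from the levels used here by 0.00117 to 0.0133 for the miR-140 arms.

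Following those methods, the probe signals of each of 1079 mouse miRNAs were added up, and the sums were quantile normalized. Sums no higher than 0 after this step (51.5%) were set to the smallest positive value (-7.03 on the log2 scale) before log2. Virus miRNAs were left out. All miRNAs were fitted with limma (version 3.58.1, R 4.3.3; lmFit, eBayes, two-sided) with Benjamini-Hochberg adjustment over all 1079 and a threshold of 0.05. The fit was tested on simulated data. Correlations used exact permutation tests over pairings (scipy 1.17.1, Python 3.11.15).

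The members and lists were chosen with earlier results of these data known. Named are the miR-140 arms, for each arm the 5 miRNAs of highest correlation of deviations from the diet means, and from the lists the members past the threshold plus a few others chosen after their values were seen. Gene and miRNA sequences are from RefSeq tables of GRCm38.p6. No coordinates of the array design are given. The alternatives were the deposited values, percentile scalings, no normalization, detected probes alone, normexp (offset 50), a filter on dim miRNAs, a floor of 1, the slide and the replicate number as blocks, single slides, each array left out, and the methods' t-test for the counts.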

Additional observations from a re-analysis of the deposited data

How the results depend on the processing

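The direction of both arms and of the arm difference was the same under every alternative run. The differences between the diets lay between 1.89 and 2.93 for mmu-miR-140-3p and between 1.79 and 2.65 for mmu-miR-140-5p. The value that moved by more than the spread between replicates was that of the 3p arm within slide 1 alone, 2.93. With 1 tumor left out in turn they ran from 2.18 to 2.48 and from 2.00 to 2.35, and the arm difference between the diets from 0.10 to 0.21. The correlation of the arms within the curcumin diet ran from 0.78 to 0.96, and no longer passed without curcumin tumor 5 (r = 0.78, exact permutation, adjusted p = 0.0528) or 7 (r = 0.91, adjusted p = 0.0528). Within the control diet it ran from 0.76 to 0.97, and did not pass without control tumor 3 (r = 0.96, exact permutation, adjusted p = 0.05), 5 (r = 0.95, adjusted p = 0.133) or 6 (r = 0.76, adjusted p = 0.15). Fewer tumors allow fewer pairings. The slide effect on the 3p arm changed sign to -0.0136 and -0.13 with the 75th percentile of the detected and of all miRNAs, and to -0.17 without normalization. With 1 tumor left out it ran from -0.0918 to 0.25, and that on the 5p arm from -0.27 to 0.0497. By limma the adjusted p of these slide effects was 0.872 to 1.

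Without normalization 10 miRNAs were higher in place of 90, 0 in place of 4 on the cartilage list and 2 in place of 4 on the fibroblast and mesenchyme list. The cause was not tested. With 1 tumor left out the counts were 63 to 99, 3 to 4 and 4 to 5. The methods' t-test gave 87 higher and 71 lower.

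No clear pairing of the tumors by replicate number was seen. The deviations of the 6 pairs of equal number correlated at 0.11, 0.13, 0.02, 0.13, -0.30 and 0.20 for numbers 1 to 6. Of 12 tumors, 0 correlated best with the tumor of its own number. With the replicate block the differences were 2.36 (SE 0.35) and 2.19 (SE 0.32), and the counts were 45 higher, 2 on the cartilage list and 2 on the fibroblast and mesenchyme list, from 12 tumors. Signals near the background limit the dim list members, not the arms.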
